A study of Mus musculus with 32 samples.

Results

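The 10 genes described here encode contractile and stromal proteins that mark myofibroblasts: Acta2, Tagln, Cnn1, Tpm1, Vim, S100a4, Fap, Postn, Pdgfra and Pdgfrb. They were chosen by name. Their open chromatin was followed as the 235 sites, of 276187 sites in all, that had a peak centre in the gene body or within 50 kb of it on the GRCm38 assembly. A site is the stretch covered by overlapping peaks of the 15 deposited peak lists. A site counted as present in a list when a peak of that list lay in it.

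The study asked how CTCF, the zinc finger protein that binds insulators and domain borders, acts while fibroblasts are reprogrammed to pluripotency. The assay was ATAC-seq, in which a transposase inserts adapters where DNA is accessible. Each of 15 groups had 1 deposited list, made from 2 or 3 of the 32 samples. Their combination into lists is not described in the labels.

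All groups came from reprogramming cultures of mouse embryonic fibroblasts, which receive the factors Oct4, Sox2, Klf4 and c-Myc (OSKM), and the labels count the day 0 cells among them. The labels name OG2-MEFs, fibroblasts in which a GFP reporter driven by Pou5f1 regulatory sequence turns on late in reprogramming. The protocol, written once for all samples, describes both retroviral OSKM and a doxycycline-inducible lentiviral OSKM, with vitamin C in the medium. The sorted cells came from the inducible system. CTCF shRNA and a control shRNA (shLuci) were each profiled in unsorted cells at day 0, in Thy1+ cells of days 3, 6 and 9, in the SSEA1-Thy1- and the SSEA1+ cells of days 6 and 9, and in GFP+ cells of day 12. Each sorted list before the GFP+ stage thus mixes days. At day 10 the groups were OSKM with CTCF overexpression and Smarca5 shRNA, OSKM with CTCF overexpression alone, and OSKM with a control overexpression. At day 12 unsorted cells carried Smarca5 shRNA or the control shRNA. Smarca5 is the ATPase of ISWI chromatin remodelling complexes.

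Fibroblasts in culture carry much of the programme of the myofibroblast, the contractile cell of wound repair. Its genes for smooth muscle actin and its partners are driven by serum response factor with myocardin-related cofactors, and by signals such as transforming growth factor beta. Loss of mesenchymal identity, with gain of epithelial identity, is an early step on the way to pluripotency, and Thy1 loss, SSEA1 gain and reporter expression mark its successive stages.

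Whole lists ranged from 43543 sites in the unsorted day 12 control to 212997 sites in the Thy1+ list of CTCF shRNA. The depth of reads is unknown, the lists carry no height or score per peak, and no difference has a replicate check, so no test was run. Many percentages come with an exact 95% interval (Clopper-Pearson), a measure of counting error over sites alone, beside the same percentage over all sites of the lists. Those without an interval carry the same kind of error. In bulk lists, fewer cells with an open site and less accessibility per cell cannot be told apart. Day 10, day 12 and the 10 day 0 and sorted lists formed 3 sets with their own peak positions: 44.0% to 95.6% of positions were identical within a set and 0.664% to 0.887% between sets. The SSEA1+ list with CTCF shRNA stood apart from its control. It held 183247 sites, against 135422 in the control. Near the 10 genes, 153 of its 170 sites were in the Thy1+ control list, which held 184 sites there. In its own control, which held 116 sites there, were 110 of the 170. The 153 were 83.2% of the Thy1+ control sites near the 10 genes, against 81.1% over all sites. Of the sites of its own control it lacked 5.17% near the 10 genes, against 7.99% over all sites. Sites absent from its own control made up 35.3% of its sites near the 10 genes and 32.0% of all its sites, so the difference was not particular to these genes. Ctcf, Smarca5 and Thy1 each kept a peak near a gene end (1 kb on either side) in all 15 lists, which says nothing of the knockdown, since an shRNA works on RNA.

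Promoter sequence was taken from RefSeq (GRCm38.p6), from 250 bases before to 50 after an annotated start, for 7 of the 10 genes, with a pair of starts for Postn. The windows of Acta2, Cnn1 and Tpm1 are shown because these contractile genes differed in whether the window was still open in GFP+ cells. Acta2 (chr19:34255324-34255623, minus strand) had a peak in 14 of 15 lists, missing in the GFP+ control alone. Cnn1 (chr9:22099003-22099302, plus strand) and Tpm1 (chr9:67049164-67049463, minus strand) had one in all 15. Capitals mark GGAATG, a motif of TEAD factors.
Acta2: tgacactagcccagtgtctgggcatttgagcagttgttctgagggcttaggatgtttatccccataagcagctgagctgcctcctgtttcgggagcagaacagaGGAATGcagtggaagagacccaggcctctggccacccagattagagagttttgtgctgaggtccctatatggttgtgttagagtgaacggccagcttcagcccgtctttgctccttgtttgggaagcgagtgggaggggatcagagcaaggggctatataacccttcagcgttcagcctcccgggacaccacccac
Cnn1: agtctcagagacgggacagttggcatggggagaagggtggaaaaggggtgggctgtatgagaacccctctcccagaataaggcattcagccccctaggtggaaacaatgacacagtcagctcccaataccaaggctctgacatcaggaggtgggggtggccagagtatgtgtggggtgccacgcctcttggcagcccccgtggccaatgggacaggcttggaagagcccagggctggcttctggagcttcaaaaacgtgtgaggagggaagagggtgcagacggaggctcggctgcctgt
Tpm1: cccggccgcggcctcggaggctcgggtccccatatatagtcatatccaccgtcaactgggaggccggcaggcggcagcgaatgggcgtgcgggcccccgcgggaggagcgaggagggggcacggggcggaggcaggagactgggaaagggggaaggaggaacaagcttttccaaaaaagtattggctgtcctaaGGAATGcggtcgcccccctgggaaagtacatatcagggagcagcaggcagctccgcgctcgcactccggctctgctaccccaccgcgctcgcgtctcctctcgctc

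Motifs were searched on both strands of the 8 windows: the CArG box of serum response factor, TGANTCA (bound by AP-1), GGAATG, and the core of the CTCF motif. GGAATG was in 2 of the 8 windows, beginning at -146 in Acta2 and at -56 in Tpm1 relative to the start, and in 14.7% of 32851 promoters. The other 3 motifs were in none of the 8 windows as spelled, and in 1.63% (CArG box), 7.81% (TGANTCA) and 2.43% (CTCF core) of all promoters. A match here is a description of the letters, and the absence of one concerns exact matches in these windows only. Stretches close to a CArG box, such as ccctatatgg and ccttgtttgg in the Acta2 window, were not counted. The absence of a match thus does not mean that the Acta2 promoter lacks such an element.

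Along the control lists the 10 genes held 161 sites at day 0, then 184 (Thy1+), 149 (SSEA1-Thy1-), 116 (SSEA1+) and 82 (GFP+). No gene had more sites in the GFP+ list than at day 0, 9 had fewer and Pdgfrb had the same number. Of all 21887 protein-coding genes, 26.7% had more and 57.5% had fewer. The median log2 ratio of sites per gene, with 1 added to each count, was -0.99 over the 10 genes and -0.17 over all genes. The number was lower at each stage after Thy1+ cells, and the list of Thy1+ cells, pooled from 3 samples, was the longest for these genes as for the whole genome.

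**Figure D1:**
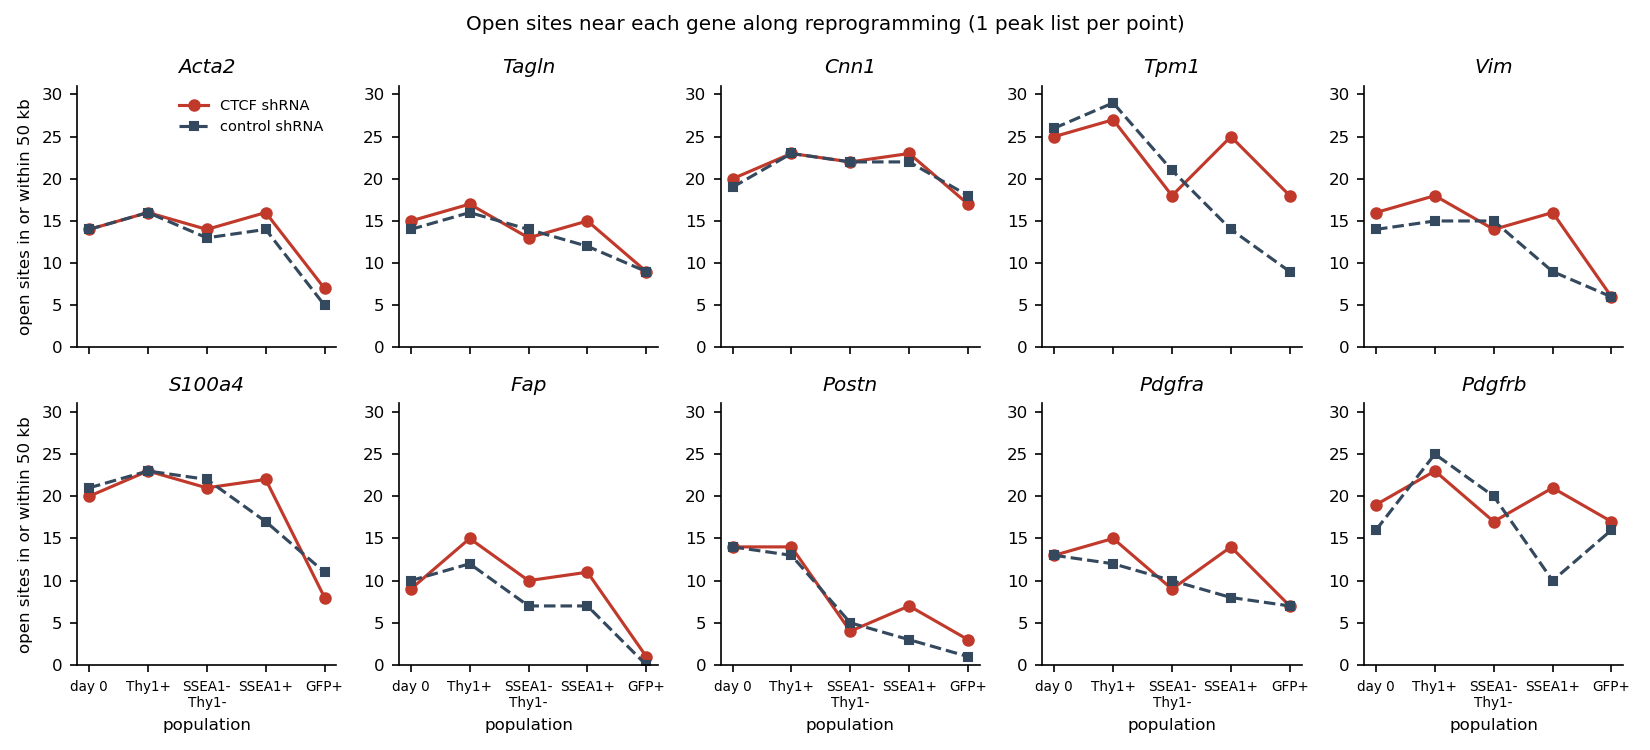
Number of open sites in or within 50 kb of each gene (y axis) in the day 0 and sorted lists (x axis), with CTCF shRNA as circles on solid lines and control shRNA as squares on dashed lines. Each point is 1 list and has no error. In the SSEA1+ lists the CTCF shRNA point lies above the control for 10 of 10 genes, by 11 sites for Tpm1 and Pdgfrb and by 1 for Cnn1.

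Among the contractile genes, the GFP+ control lacked 10 of the 14 day 0 sites of Acta2 and 8 of the 14 of Tagln. It lacked 18 of the 26 of Tpm1 and 6 of the 19 of Cnn1. Over the genome 67.7% of day 0 sites were lacking. Acta2 (chromosome 19, 34240336 to 34255585) encodes smooth muscle actin, the filament protein that defines the myofibroblast. Its control lists held 14 sites at day 0, then 16 (Thy1+), 13 (SSEA1-Thy1-), 14 (SSEA1+) and 5 (GFP+). Numbers were thus level up to SSEA1+ cells and low in GFP+ cells, though the sites were not the same. The SSEA1+ control lacked 6 of the day 0 sites and had 6 others. Of the 10 Acta2 sites open at day 0 and not in GFP+ cells, the Thy1+ control held 8. The SSEA1-Thy1- and SSEA1+ controls each held 4, and the promoter site was one of them. The 5 sites left in the GFP+ control lay in Acta2 itself or in or at its neighbours Stambpl1 and Fas.

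Tagln (chromosome 9, 45929628 to 45936058) encodes transgelin, an actin-binding protein of smooth muscle. It held 14 sites at day 0, then 16 (Thy1+), 14 (SSEA1-Thy1-), 12 (SSEA1+) and 9 (GFP+). The site at its higher-coordinate end, chr9:45935727-45936216, was present in all 15 lists. Cnn1 (chromosome 9, 22099221 to 22109221) encodes calponin, which binds actin and restrains myosin. It held 19, 23, 22, 22 and 18 sites in the same order of control lists, and 13 of its 19 day 0 sites were in the GFP+ list. The site 8077 bp before the gene, chr9:22090944-22091344, was absent from the other 4 of these control lists and present in GFP+ cells, and with CTCF shRNA it was present from SSEA1-Thy1- cells onwards. Its window also holds 6 other genes, and 12 of its 28 sites lay within 1 kb of the end of one of those.

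Tpm1 (chromosome 9, 67022590 to 67049672) encodes tropomyosin, which lies along actin filaments. It had 35 sites, the most of the 10 genes, and only Lactb shares its window. Control lists held 26 of them at day 0, then 29 (Thy1+), 21 (SSEA1-Thy1-), 14 (SSEA1+) and 9 (GFP+). The number fell short of the preceding stage at each step after Thy1+. Of the 18 Tpm1 sites open at day 0 and not in GFP+ cells, the Thy1+ control held 16, the SSEA1-Thy1- control 9 and the SSEA1+ control 4.

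Vim and S100a4 had a site near the start in nearly all lists and fewer distal sites late in the course. Vim (chromosome 2, 13574311 to 13582826) encodes vimentin, the intermediate filament protein of mesenchymal cells. It held 14 sites at day 0, then 15 (Thy1+), 15 (SSEA1-Thy1-), 9 (SSEA1+) and 6 (GFP+). The site just before its start, chr2:13573598-13574081, was present in all 15 lists. Its peaks overlapped the promoter window in the 10 day 0 and sorted lists and not in the day 10 and day 12 lists, whose peak positions differ. A further Vim site inside the gene, 1181 bp from the start, was absent from the day 0 and Thy1+ controls and present in the SSEA1-Thy1-, SSEA1+ and GFP+ controls. With CTCF shRNA it was already present in Thy1+ cells. The site 556 bp past the gene, chr2:13583183-13583582, was present with CTCF shRNA and not in the control at day 0 and in SSEA1+ cells, and the reverse held in SSEA1-Thy1- cells.

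S100a4 (chromosome 3, 90603770 to 90606045) encodes a calcium-binding protein also known as fibroblast-specific protein. It held 21 sites at day 0, then 23 (Thy1+), 22 (SSEA1-Thy1-), 17 (SSEA1+) and 11 (GFP+), in a window shared with S100a2, S100a3, S100a5, S100a6 and S100a7a. No list had a peak in its promoter window. The nearest site, with its centre 816 bp after the start, was present in 14 lists and missing in the GFP+ control alone, the same list that lacked the Acta2 promoter site. The site past its far end, chr3:90606173-90606642, also touches S100a5. It was lacking with CTCF shRNA at day 0 and in SSEA1-Thy1- cells, where the control held it, and was present in SSEA1+ cells with CTCF shRNA and not in the control.

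The stromal genes Fap and Postn went furthest towards closure. Fap (chromosome 2, 62500936 to 62575509) encodes fibroblast activation protein, a serine protease of the cell surface. Control lists held 10 sites at day 0, then 12 (Thy1+), 7 (SSEA1-Thy1-), 7 (SSEA1+) and 0 (GFP+). In the GFP+ control 9.76% of all protein-coding genes had no site in such a window. The site at the higher-coordinate end of Fap, chr2:62574979-62575394, was in the day 0 and Thy1+ controls and in neither of the later sorted controls nor the GFP+ control, yet it was present in the unsorted day 12 control.

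Postn (chromosome 3, 54359267 to 54391041) encodes periostin, a matrix protein secreted by activated fibroblasts. It held 14 sites at day 0, then 13 (Thy1+), 5 (SSEA1-Thy1-), 3 (SSEA1+) and 1 (GFP+). The drop in number thus fell mainly between Thy1+ and SSEA1-Thy1- cells, while the number for Acta2 fell mainly after SSEA1+ cells. Of the sites open at day 0 and not in GFP+ cells, the SSEA1-Thy1- control still held 4 of 10 for Acta2. For Postn it held 3 of 13. The site that remained, chr3:54353257-54353656, lies 5811 bp outside the gene. The window of the second annotated start, chr3:54360857-54361156 on the plus strand, had a peak in Thy1+ cells with CTCF shRNA and in none of the other 14 lists, and it is shown for that reason.
Postn, the second start: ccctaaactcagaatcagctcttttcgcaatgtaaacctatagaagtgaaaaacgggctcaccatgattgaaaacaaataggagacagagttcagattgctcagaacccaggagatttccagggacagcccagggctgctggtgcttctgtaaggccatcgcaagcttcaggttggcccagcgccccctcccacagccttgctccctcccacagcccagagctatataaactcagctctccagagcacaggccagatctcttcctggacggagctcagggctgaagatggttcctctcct

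**Figure D2:**
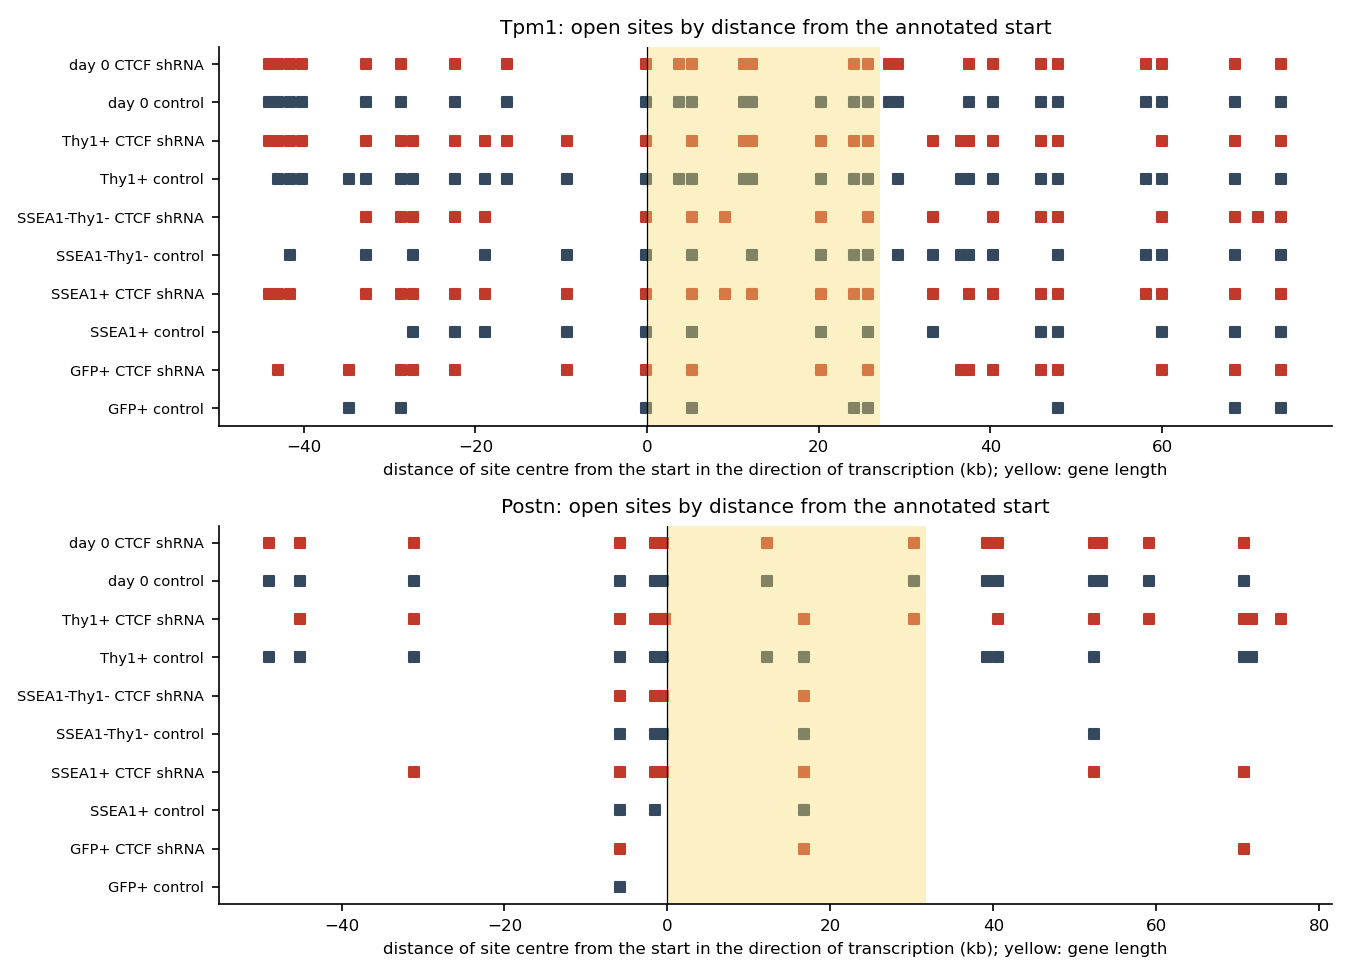
Sites of Tpm1 and Postn by the distance of their centre from the annotated start, in kb along the direction of transcription (x axis), in the 10 day 0 and sorted lists (rows, CTCF shRNA above its control). Each square is 1 site present in that list, and the yellow band is the gene. Tpm1 has 25 squares in SSEA1+ cells with CTCF shRNA and 14 in the control, and Postn has 7 and 3.

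The receptor genes behaved unlike each other. Pdgfra and Pdgfrb encode the alpha and beta receptors for platelet-derived growth factor, a mitogen of mesenchymal cells. Pdgfra (chromosome 5, 75151322 to 75198206), with no other gene in its window, held 13 sites at day 0, then 12 (Thy1+), 10 (SSEA1-Thy1-), 8 (SSEA1+) and 7 (GFP+). A pair of sites shortly before the gene, chr5:75148259-75149083 and chr5:75149809-75150301, was present in all 10 day 0 and sorted lists. Pdgfrb (chromosome 18, 61045127 to 61085067) held 16, 25, 20, 10 and 16 sites in the same order. Its GFP+ number equals its day 0 number because 9 sites were open at day 0 and not in GFP+ cells and 9 others the reverse. Several of those 9 others lay in or at Slc6a7, Cdx1, Gm52351, Csf1r and Hmgxb3, which share its window.

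**Figure D3:**
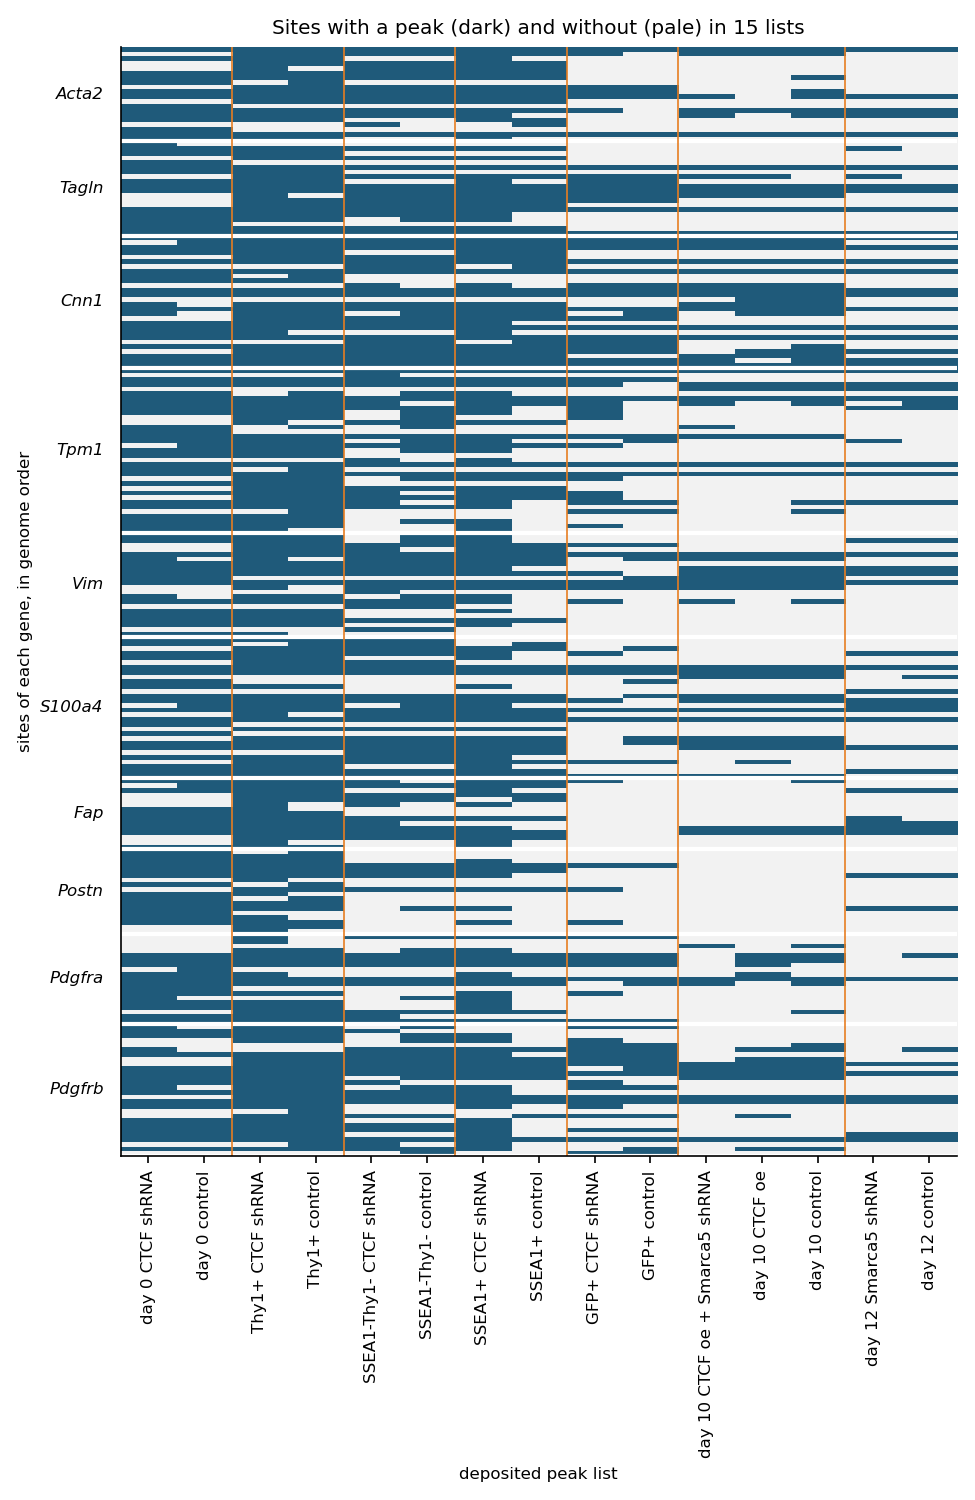
Each row is a site of 1 of the 10 genes in genome order, and each column is a deposited list. Dark marks a site with a peak and pale one without, and orange lines separate the comparisons. 30 of the 235 sites (12.8%, against 7.77% of all sites) are dark in all 15 columns. Most Fap and Postn rows are pale from the GFP+ columns onwards.

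Over the 10 genes, 105 of the 161 day 0 control sites were absent from the GFP+ control (65.2%, 57.3% to 72.5%), against 67.7% of all day 0 sites. Of the 82 GFP+ sites, 26 were absent from day 0 (31.7%, 21.9% to 42.9%), against 45.5% of all GFP+ sites. The share closing was thus near that of all day 0 sites, whether or not they lie in a gene's window. The share opening was below that of all GFP+ sites. The share kept differed by location, near the 10 genes as over all genes. The same classes were counted over the windows of all protein-coding genes, where a site counts once for each gene whose window holds it. Day 0 sites were still present in the GFP+ control for 9 of 17 at an own gene end (52.9%, 27.8% to 77.0%, against 82.8% for all genes) and 16 of 21 at the end of another gene (76.2%, 52.8% to 91.8%, against 83.5%). In the gene's own body 6 of 25 were still present (24%, 9.36% to 45.1%, against 29.3%), in the body of another gene 12 of 35 (34.3%, 19.1% to 52.2%, against 44.8%) and between genes 13 of 63 (20.6%, 11.5% to 32.7%, against 39.7%). In every class the share kept was thus below that over the windows of all genes. The value for all genes lay outside the interval for own gene ends and between genes, and within it for the other 3 classes. Set against windows of all genes, sites near the 10 genes were therefore kept less often.

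Each sorted control was also set against the day 0 control, a list these comparisons share. The Thy1+ list lacked 19 of the 161 day 0 sites (11.8%, against 14.7% of all) and 42 of its own 184 sites were new (22.8%, against 32.5%). In SSEA1-Thy1- cells 64 day 0 sites were lacking (39.8%, 32.1% to 47.8%, against 51.2%) and 52 of 149 were new (34.9%, against 50.3%). For SSEA1+ cells the numbers were 88 lacking (54.7%, 46.6% to 62.5%, against 61.7%) and 43 of 116 new (37.1%, against 56.6%). More sites than at day 0 were found at 8 genes in Thy1+ cells (75.7% of all genes), at 4 in SSEA1-Thy1- cells (49.9%) and at Cnn1 alone in SSEA1+ cells (42.1%). Fewer were found at 2 (7.13%), 5 (31.7%) and 8 (40.4%) genes of those lists. New sites were thus a smaller share near the 10 genes than over all sites of the lists at each of the 3 stages. The latter include sites outside gene windows. Windows of all genes were not counted here, so a difference from other genes in this share was not tested.

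The sorted controls gave the order of closing. Of the 105 closing sites, the Thy1+ list held 83.8% (75.3% to 90.3%), the SSEA1-Thy1- list 42.9% (33.2% to 52.9%) and the SSEA1+ list 23.8% (16.0% to 33.1%). All closing sites of the genome, in gene windows or not, were held at 79.5%, 28.9% and 15.1% in the same lists. Against that reference, sites near the 10 genes were held more often at each of the 3 stages. The reference lay outside the interval in the SSEA1-Thy1- and SSEA1+ lists. Closing sites in the windows of all genes were not counted for these lists, so a difference from other gene windows was not tested. Among control-list patterns, 25 sites (11.3% of those open in any of the 5 control lists) were open from day 0 to SSEA1-Thy1- cells and closed after, against 6.27% of all sites, and 20 (9.05%) lasted to SSEA1+ cells, against 5.07%. The earlier pattern, open at day 0 and in Thy1+ cells only, held 38 sites (17.2%), against 19.8%. Of the 26 opening sites, the Thy1+ control held 65.4% (44.3% to 82.8%, against 49.6% of all opening sites). The SSEA1-Thy1- control held 88.5% (69.8% to 97.6%, against 58.7%) and the SSEA1+ control 76.9% (56.4% to 91.0%, against 64.1%).

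With CTCF shRNA the SSEA1+ list differed most from its control. Near the 10 genes it held 170 sites, against 116 in the control. It had gained 60 sites absent from the control (35.3% of its sites, 28.1% to 43.0%), where 32% of all its sites were gained. It lacked 6 of the control's sites (5.17%, 1.92% to 10.9%), against 7.99% of all. The shares gained and lost near the 10 genes were therefore close to those of the whole lists. All 10 genes had more sites with CTCF shRNA, as did 71.9% of all protein-coding genes, where 7.15% had fewer. The median log2 ratio was 0.66 over the 10 genes and 0.23 over all.

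**Figure D4:**
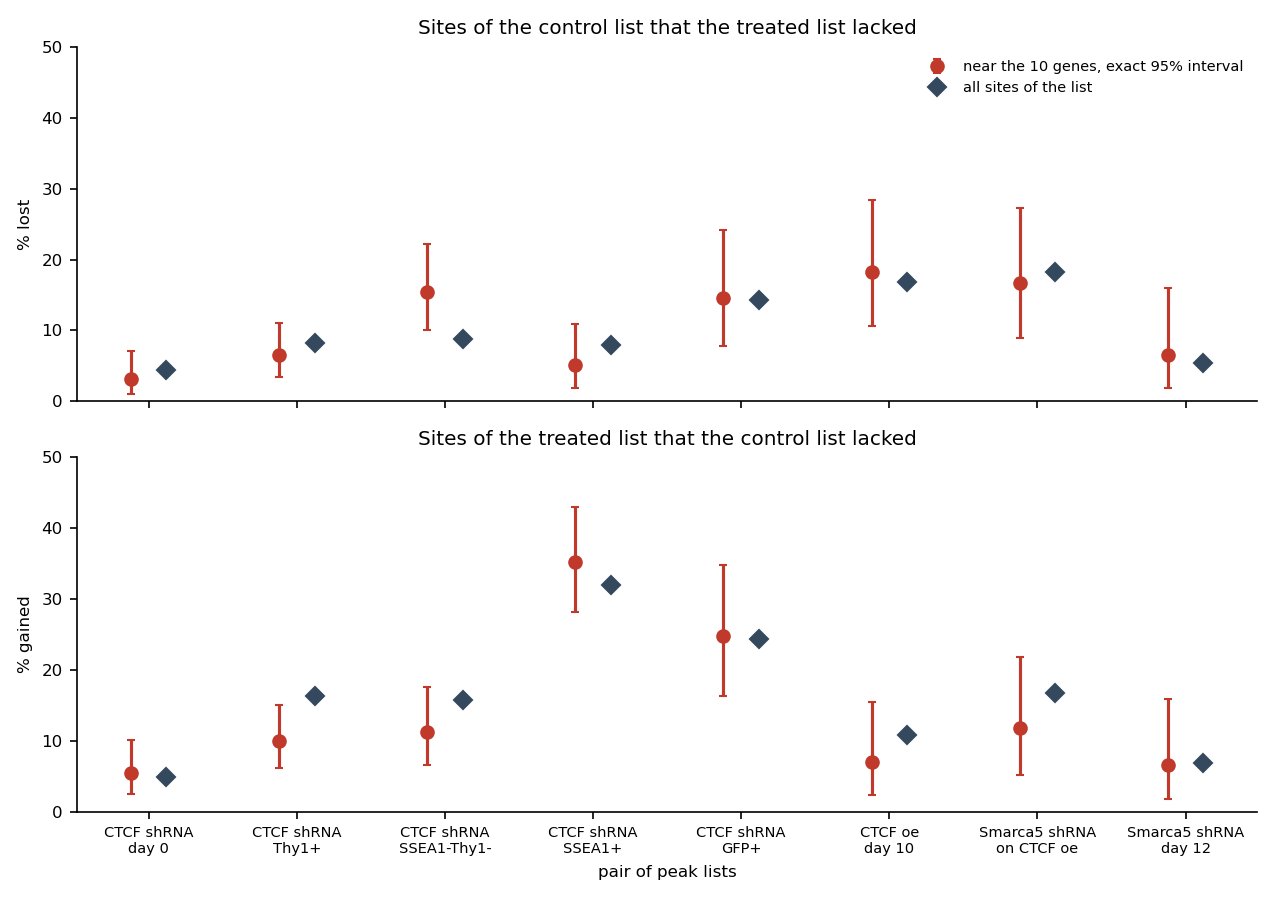
Percentage of control sites missing from the treated list (upper panel) and of treated sites missing from the control list (lower panel) in 8 pairs of lists. Circles are sites near the 10 genes with exact 95% intervals, and diamonds are all sites of the list. The gain in SSEA1+ cells is 35.3% near the 10 genes and 32% over the whole list, and the loss in SSEA1-Thy1- cells is 15.4% and 8.74%.

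Among the contractile genes in SSEA1+ cells, Tpm1 had 25 sites with CTCF shRNA against 14 in the control, Acta2 16 against 14, Tagln 15 against 12 and Cnn1 23 against 22. Vim had 16 against 9 and S100a4 22 against 17. Fap had 11 against 7 and Postn 7 against 3, including the Postn site chr3:54358438-54358895, 601 bp from the gene, which the control lacked. Pdgfra had 14 against 8 and Pdgfrb 21 against 10. Tpm1 and Pdgfrb together made up 23 of the 60 gained sites. The site 10278 bp from Acta2, chr19:34265633-34266093, was also among the gains, and was open in the day 0, Thy1+ and SSEA1-Thy1- controls.

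Of the 60 sites gained in SSEA1+ cells, 50 were open in the day 0 control (83.3%, against 81.6% of all sites gained there) and 52 in the Thy1+ control (86.7%, against 89.0%). Closing sites near the 10 genes were held at 64.8% (54.8% to 73.8%) with CTCF shRNA, against 23.8% in the control. Over all closing sites of the genome the shares were 55.6% and 15.1%, so the lists differed by a like amount across the genome. Opening sites near the 10 genes were held at 76.9% in both lists, and all opening sites at 61.0% with CTCF shRNA and 64.1% in the control. Thy1, the gene of the fibroblast sort marker, had 19 sites in its window with CTCF shRNA against 10 in the SSEA1+ control, and 22 in the Thy1+ control. The part of Thy1+ cells or of an exchange of samples in the difference was not tested.

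**Figure D5:**
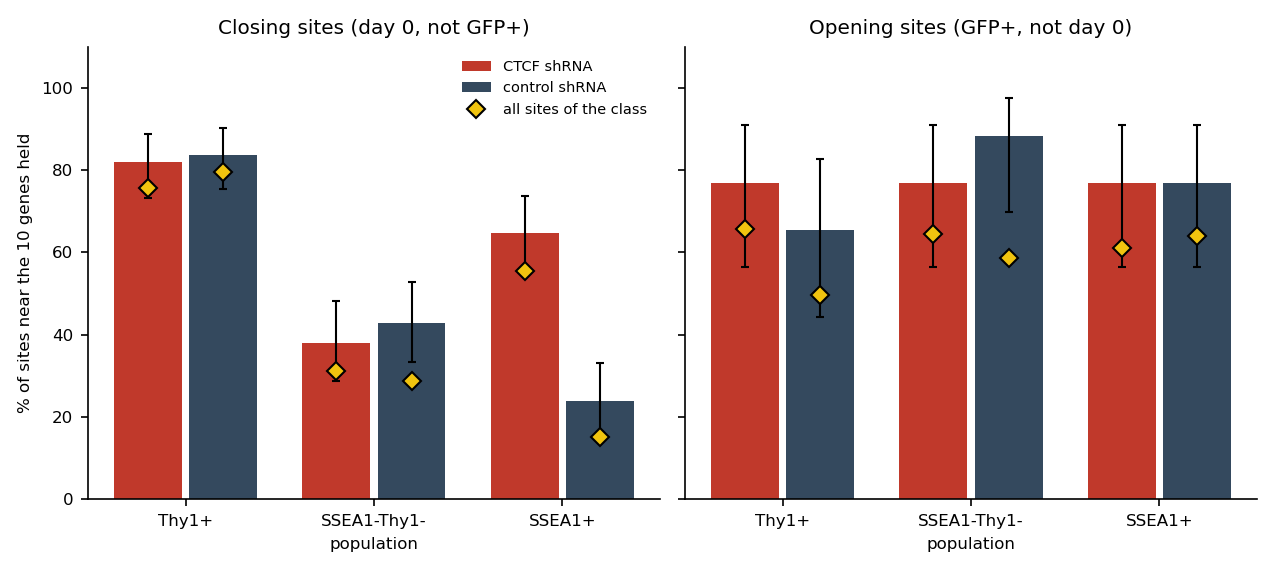
Share of closing sites (left) and opening sites (right) near the 10 genes that were present in 3 sorted populations, with CTCF shRNA in red and control shRNA in dark blue. Bars give the percentage, whiskers the exact 95% interval over sites, and diamonds the same percentage over all sites of the class. Closing sites stand at 64.8% with CTCF shRNA and 23.8% in the control in SSEA1+ cells, and at 38.1% and 42.9% in SSEA1-Thy1- cells.

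In SSEA1-Thy1- cells the 10 genes had slightly fewer sites with CTCF shRNA, while the whole list had more. The list with CTCF shRNA held 142 sites, against 149 in the control, while over the genome it held 163499, against 150903. It lacked 23 control sites (15.4%, 10.0% to 22.3%), where 8.74% of all control sites were lacking, and had gained 16 (11.3%, 6.58% to 17.7%), against 15.8%. The interval of the lost share lay above the share of all sites, and that of the gained share included it. The size of this difference depended on the setting, and no setting gave more sites with CTCF shRNA. Within 100 kb there were 235 sites with CTCF shRNA and 236 in the control, and without Tpm1 124 and 128. In gene bodies alone both lists had 27. Fewer sites with CTCF shRNA were found at 7 of the 10 genes, more at Acta2 and Fap and the same number at Cnn1, whereas 18.6% of all genes had fewer and 48.7% had more. Differences per gene were small: Tpm1 had 18 against 21, Pdgfrb 17 against 20 and Fap 10 against 7. Tagln had 13 against 14, Vim 14 against 15, S100a4 21 against 22, Postn 4 against 5 and Pdgfra 9 against 10, while Acta2 had 14 against 13 and Cnn1 22 in both lists.

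Tpm1 and Pdgfrb carried most of these losses, with 8 and 6 of the 23. Tpm1 also gained 5 sites and Pdgfrb 3, so the net change was -3 for each. Of the 23 lost sites, 21 were open in the Thy1+ control (91.3%, against 79.0% of all sites lost there) and 3 in the SSEA1+ control, which held 25.2% of all sites lost there. The SSEA1+ list with CTCF shRNA held 19 of them (82.6%, against 66.2% of all). Fap gained its higher-coordinate end site in this pair, and Vim a site at its far end, chr2:13582016-13582415, found in no other list.

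Thy1+ cells showed few changes at the 10 genes. The list with CTCF shRNA held 191 sites, against 184 in the control, with 12 lost (6.52%, 3.42% to 11.1%, against 8.2% of all) and 19 gained (9.95%, 6.10% to 15.1%, against 16.4% of all). The interval of the gained share lay below the share of the whole list. Fap and Pdgfra had 3 sites more each, at 15 against 12 and 15 against 12, and Vim had 18 against 15. Tagln had 17 against 16 and Postn 14 against 13, and Acta2, Cnn1 and S100a4 had equal numbers. Tpm1 had 27 against 29 and Pdgfrb 23 against 25. In all, 5 genes had more sites and 2 fewer, where 55.7% and 16.7% of all genes did. At day 0 the lists held 165 sites with CTCF shRNA and 161 in the control, with 5 lost (3.11%, against 4.44% of all) and 9 gained (5.45%, against 4.85%), and Pdgfrb, with 19 against 16, was the gene that differed most. Vim had 16 against 14, Tagln 15 against 14 and Cnn1 20 against 19. Tpm1 had 25 against 26, S100a4 20 against 21 and Fap 9 against 10, and Acta2, Postn and Pdgfra had equal numbers. At day 0, 4 genes had more sites and 3 fewer, against 26.3% and 22% of all genes.

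In GFP+ cells the list with CTCF shRNA held 93 sites, against 82 in the control. It lacked 12 control sites (14.6%, 7.80% to 24.2%, against 14.3% of all) and had gained 23 (24.7%, 16.4% to 34.8%, against 24.3% of all). Both shares were close to those of the whole lists. More sites were found at 5 genes and fewer at 2, against 48% and 19.4% of all genes, and Tpm1 alone made up 10 of the 23 gains, with 18 sites against 9. The gains included the Acta2 promoter site and the S100a4 site 816 bp after its start. S100a4 otherwise had fewer sites, 8 against 11. Acta2 had 7 against 5, Postn 3 against 1, Fap 1 against 0 and Pdgfrb 17 against 16, Cnn1 had 17 against 18, and Tagln, Vim and Pdgfra had equal numbers in both lists. All 23 gained sites were open in the Thy1+ control, against 76.9% of all sites gained in GFP+ cells, and 17 were open in the day 0 control (73.9%, 51.6% to 89.8%, against 48.6%).

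Hardly any site changed in the same direction again and again. Of the 230 sites in the 10 day 0 and sorted lists, 1 was gained in at least 3 of the 5 CTCF shRNA pairs, against 1.21% of all sites, and 0 were lost in at least 3, against 0.205%. The gained site lay inside Fap, chr2:62537971-62538370. It was present with CTCF shRNA in the 3 intermediate sorted populations and in none of the 5 control lists. Without the SSEA1+ pair, whose list stood apart, it was gained in 2 of 4 pairs and no site reached 3.

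CTCF overexpression at day 10 went with fewer sites near the 10 genes, and with fewer over the whole list, at 67451 against 72285. Near the 10 genes the list held 72 sites, against 82 with the control overexpression, with 15 lost (18.3%, 10.6% to 28.4%, against 16.8% of all) and 5 gained (6.94%, 2.29% to 15.5%, against 10.9% of all). Both intervals included the share of all sites. Acta2 had 4 sites with CTCF overexpression against 8 in the control and Tpm1 7 against 10. Cnn1 had 17 against 19, Vim 7 against 8, Fap 2 against 3 and Pdgfra 5 against 6. Tagln had 7 against 6, S100a4 12 against 11, Pdgfrb 11 against 11, and Postn had no site in any of the 3 day 10 lists. In all, 6 of the 10 genes had fewer sites and 2 had more, where 31.2% and 26.1% of all genes did. The 4 Acta2 losses included the site 10278 bp from the gene and left its promoter site in place, and Pdgfra gained the site chr5:75151080-75151517 at its lower-coordinate end. Vim lost the site 984 bp past the gene, chr2:13583588-13584032.

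Adding Smarca5 shRNA to CTCF overexpression gave 68 sites, against 72 with CTCF overexpression alone, with 12 lost (16.7%, 8.92% to 27.3%, against 18.3% of all) and 8 gained (11.8%, 5.22% to 21.9%, against 16.8% of all). Fewer sites were found at 4 genes and more at 3, against 39.6% and 22% of all genes. Both comparisons use the list of CTCF overexpression alone, so their values stand side by side. Acta2 had 6 sites with Smarca5 shRNA and CTCF overexpression, 4 with CTCF overexpression alone and 8 in the control, and Tpm1 had 9, 7 and 10. In the same order Pdgfra had 3, 5 and 6 sites and Pdgfrb 7, 11 and 11. Cnn1 had 15, 17 and 19, Vim 8, 7 and 8, S100a4 11, 12 and 11, Tagln 7, 7 and 6, and Fap 2, 2 and 3. With Smarca5 shRNA added, the Acta2 site 10278 bp from the gene and the Vim site 984 bp past the gene were present, and the Pdgfra end site was absent, as in the control overexpression. The lost Acta2 sites chr19:34210628-34211071 and chr19:34241245-34241694 stayed absent. Of the 15 sites lost with CTCF overexpression, 7 were present with Smarca5 shRNA added (46.7%, 21.3% to 73.4%, against 56.9% of all such sites). Of the 5 gained, 1 was still present (20%, against 36.8% of all). Cnn1 lost a site 853 bp after its start, chr9:22099907-22100306, that both other day 10 lists held. Acta2 and Tpm1 thus had numbers between those of the other lists, and the receptor genes had their lowest numbers with Smarca5 shRNA. At day 12 Smarca5 shRNA without CTCF overexpression gave 61 sites, against 61 in the control. There were 4 lost (6.56%, 1.82% to 15.9%, against 5.39% of all) and 4 gained (6.56%, 1.82% to 15.9%, against 6.82%). No gene differed by more than 2 sites, 2 genes had more and 3 fewer (14.9% and 12.7% of all genes), and Tagln, with 7 against 5, differed most. Fap had 5 against 4, S100a4 9 against 10, Pdgfra 1 against 2 and Pdgfrb 6 against 7, and Acta2, Cnn1, Tpm1, Vim and Postn had equal numbers.

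Related genes, like most genes, had more sites in SSEA1+ cells with CTCF shRNA. Of 18 further contractile genes, 17 had more sites in SSEA1+ cells with CTCF shRNA and 0 fewer, with 357 sites summed against 233 in the control, where 71.9% of all protein-coding genes had more and 7.15% fewer. Cald1, which encodes caldesmon, had 41 against 18. All 7 regulators had more, with 179 against 124, among them Mrtfa, a cofactor of serum response factor, with 46 against 28. Of 14 further stromal genes 13 had more and 0 fewer, with 322 against 198, and Tnc, which encodes the matrix protein tenascin C, had 21 against 4. In SSEA1-Thy1- cells 10 contractile genes had more and 2 fewer (299 against 285 sites), where 48.7% of all genes had more and 18.6% fewer. In that pair 3 regulators had more and 2 fewer (154 against 144) and 8 stromal genes more and 4 fewer (267 against 259). The summed numbers of these 3 lists were higher with CTCF shRNA in that pair, while that of the 10 genes was lower.

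Between the GFP+ control and day 0, 13 of the 18 contractile genes had fewer sites in GFP+ cells (218 against 366), 5 of 7 regulators (83 against 164) and 13 of 14 stromal genes (138 against 312), where 57.5% of all genes had fewer. Of 4 markers each, epithelial genes summed to 76 sites in GFP+ cells against 48 at day 0, pluripotent genes to 68 against 39, endothelial genes to 39 against 54 and haematopoietic genes to 36 against 52. In SSEA1+ cells the markers of other cell types were also higher in number with CTCF shRNA, with 70 against 48 for endothelial, 69 against 44 for haematopoietic and 85 against 72 for epithelial genes, while the 4 pluripotent genes had 63 against 59. Csf1r, one of the haematopoietic markers, shares the window of Pdgfrb. The share of such cells in the lists was not tested.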

How the data were processed

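ATAC-seq peak lists of 15 groups (32 samples) were used. The submitters' processing notes name MACS2, Bowtie2, Picard, SAMtools, FastQC, cutadapt and Trim Galore, and GRCm38 (mm10) as the build. What version and role each had, which peak threshold applied and whether reads were shifted for the transposase is not given in the sources used here. Deposited files give peak positions, intervals of 400 bp, and a score that is 0 throughout, so no peak was ranked or filtered and depth is unknown. Of the deposited columns 0 belonged to samples outside the series.

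Peaks of all lists were merged from 1 bp of overlap into sites. A site belonged to a gene when a peak centre lay in the gene or within 50 kb of it, using 21887 protein-coding genes of GRCm38.p6 (RefSeq). A gene end is either end with 1 kb on either side. Lost sites are shares of the control list, gained sites of the treated list. Closing sites are in the day 0 control and not in the GFP+ control, opening sites the reverse. Per-gene ratios add 1 to each count of sites. Groups followed titles and source names, 8 pairs were compared, and the steps recovering lost and gained sites were tested on simulated data. Python 3.11.15, numpy 2.4.6, scipy 1.17.1 and matplotlib 3.10.9 were used.

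All 10 genes are named in each of the 8 pairs, and their numbers at each stage are given gene by gene. The rule for named sites took promoter or gene-end sites, the changed site nearest each start, and sites changed alike in at least 3 pairs. Of the nearest changed sites those at an own gene end are given, with some of the others. Other sites, and the partner genes given as examples, were chosen after their values were seen. The 10 genes and the partner and marker lists were chosen with earlier results of these data known. Alternatives varied the window, the overlap, the merging, neighbouring gene ends and the inclusion of Tpm1.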

Additional observations from a re-analysis of the deposited data

Results flagged for a closer look

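Opposite net changes between populations drew a closer look, and none of these differences was tested. Over the 10 genes, CTCF shRNA went with a net gain of 54 sites in SSEA1+ cells and a net change of -7 in SSEA1-Thy1- cells, which lie 61 sites apart. Tpm1 had a net gain of 11 sites in SSEA1+ cells and a net change of -3 in SSEA1-Thy1- cells, a gap of 14. Pdgfrb gave the same values, 11 and -3, also a gap of 14. S100a4 had a net gain of 5 sites in SSEA1+ cells and a net change of -3 in GFP+ cells, a gap of 8. The SSEA1+ list with CTCF shRNA takes part in each of these gaps.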

How the results depend on the processing

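No paired analysis was possible because each group is 1 list with its samples combined. For the same reason no replicate could be left out, and a stricter peak threshold was not run because every score is 0. Of 126 alternative percentages lost or gained, 122 stayed within the interval of the value reported and 4 did not. The alternatives reuse many of the same sites and the intervals are wide, so staying within one says little. Whether a contrast with all sites held under each alternative was not tested. With gene bodies only, the gained share was 18.5% in SSEA1-Thy1- cells (5 of 27) and 35% in GFP+ cells (7 of 20), and 0% was lost with Smarca5 shRNA at day 12 (0 of 11). These counts rest on far fewer sites. Without sites within 1 kb of the end of another gene, 72.8% of day 0 sites were absent from GFP+ cells (99 of 136), and the sites left out were those most often kept. Without Tpm1, the gene with the most sites, 11.7% were lost in SSEA1-Thy1- cells, 17.3% gained in GFP+ cells and 33.8% gained in SSEA1+ cells, all within the intervals given. The SSEA1-Thy1- loss then lay nearer the 8.74% of all sites lost in that pair. Without the SSEA1+ pair, a check chosen after seeing the data, 0 sites were gained in at least 3 of 4 pairs.

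Depth is unknown, so absence from a list is absence of a call and not of accessibility. List length and sample number differ between groups, and their part in the counts was not tested. Neighbouring genes share the windows, so a site near one of the 10 genes need not act on it.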
